A study of Homo sapiens with 8 samples.

Results

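NRG1 encodes neuregulin-1, a growth factor of the epidermal growth factor family, and the 1.3 Mb of chromosome 8 that hold its gene were examined here. The stretch runs from 31.4 to 32.7 Mb of genome build hg19, and NRG1 lies on the plus strand from 31.497 to 32.623 Mb. Peaks of H3K27ac, a histone acetylation found at active promoters and enhancers, were taken if they overlapped this stretch. The 4 lists had 45, 41, 58 and 52 such peaks, in control 1, control 2, siRNA-1 and siRNA-2. Merged wherever they overlapped by 1 bp or more, they made 63 regions, of 60669 on chromosomes 1 to 22 and X. The locus was chosen from earlier results of these same peak lists, as one where acetylation was gained, so all differences between the treatments below are descriptions and carry no test.

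The cells were A549, an established human lung adenocarcinoma line in which the stress regulator NRF2 is active. They were transfected with a control siRNA or with CEBPB siRNA-1 or siRNA-2, which target the basic leucine zipper transcription factor CEBPB. Medium was changed 24 h after transfection and chromatin was harvested after a further 24 h. Each siRNA against CEBPB gave 1 immunoprecipitated library and the control siRNA gave 2, so 2 libraries were set against 2, and the spread of the knockdown includes any difference between the siRNAs. Separate cultures are not stated for the libraries of a treatment, whose spread may thus be technical only. The lists hold no read counts, so sequencing depth is unknown, and a stretch without a peak was not called rather than shown to lack acetylation. How far CEBPB was lowered cannot be read from peak lists, and no marker gene of the line was placed on them here.

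Neuregulin-1 is made as a membrane-bound or secreted precursor. Its EGF-like domain binds the receptors ERBB3 and ERBB4, which signal as dimers, often with ERBB2. The gene uses alternative promoters along its length, giving isoforms that differ at the amino terminus and share the EGF-like domain. Fusions that keep this domain occur in some lung adenocarcinomas. The sources used here give the outer ends of NRG1 on hg19 and not its exons or inner start sites, so no region below is assigned to an exon, an intron or an isoform.

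After CEBPB knockdown, more of the NRG1 locus was covered by H3K27ac peaks, and the net added length lay in a 135 kb cluster in the middle of the gene. Called length, the bases covered by peaks, was 81.9 and 81.0 kb in control 1 and control 2, and 109.3 and 96.3 kb with siRNA-1 and siRNA-2. Both knockdown libraries were above both controls, with means of 103 ± 9.23 kb and 81.4 ± 0.588 kb (SD, n = 2 each), 26.2% apart. The difference of 21.3 kb was larger than the spread within either treatment. It was 27.4 kb between the libraries labelled 1 and 15.2 kb between those labelled 2. As a share of all called bases in its list, the locus took up 0.121% and 0.131% in the controls, against 0.155% and 0.156% with siRNA-1 and siRNA-2. The gap was therefore also there relative to the size of each list, which was 67.9, 62.07, 70.44 and 61.68 Mb in control 1, control 2, siRNA-1 and siRNA-2.

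Other stretches of the genome were measured in the same way. Chromosomes 1 to 22 and X held 2123 windows of 1.3 Mb with at least 1 peak. Called length was above both controls in both knockdown libraries in 32.2% of them, as it was in the NRG1 locus. A mean difference of at least 21.3 kb was found in 42 windows (1.98%), while the median window differed by 0.380 kb. Size in kb depends on how much is acetylated to begin with. Among the 968 windows with 20 kb or more called in every library, a minimum picked after seeing the data, 14.6% had a ratio of knockdown to control length of at least the 1.26 of the NRG1 locus. In direction and in ratio the locus was therefore one of many. In kb, as placed around the gene, it was among the larger differences.

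**Figure D1:**
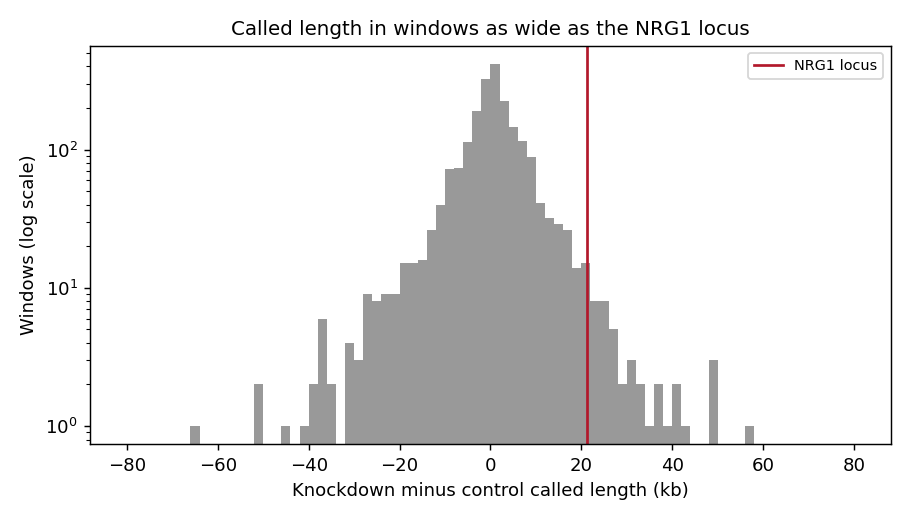
Histogram of the knockdown minus control mean called length (kb) in 2123 windows of 1.3 Mb, with the number of windows on a log scale. The red line marks the NRG1 locus at 21.3 kb, on the upper side, where 42 windows reached that difference or more. The locus was placed around the gene and is not one of the windows.

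Acetylation was unevenly placed along the gene. No region lay before the start of NRG1 in the stretch, and the nearest region upstream ended 466 kb before the gene. The first region inside the gene began 115 kb after its start, so none of the 4 libraries had a peak at the annotated outer start. Of the 63 regions, 62 lay in the gene and 1 after its end. Split where more than 20 kb separated neighbours, a distance picked after seeing the data, they formed 11 groups. The longest stretch with no call in any library was 250 kb, between 334 and 584 kb from the start.

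**Figure D2:**
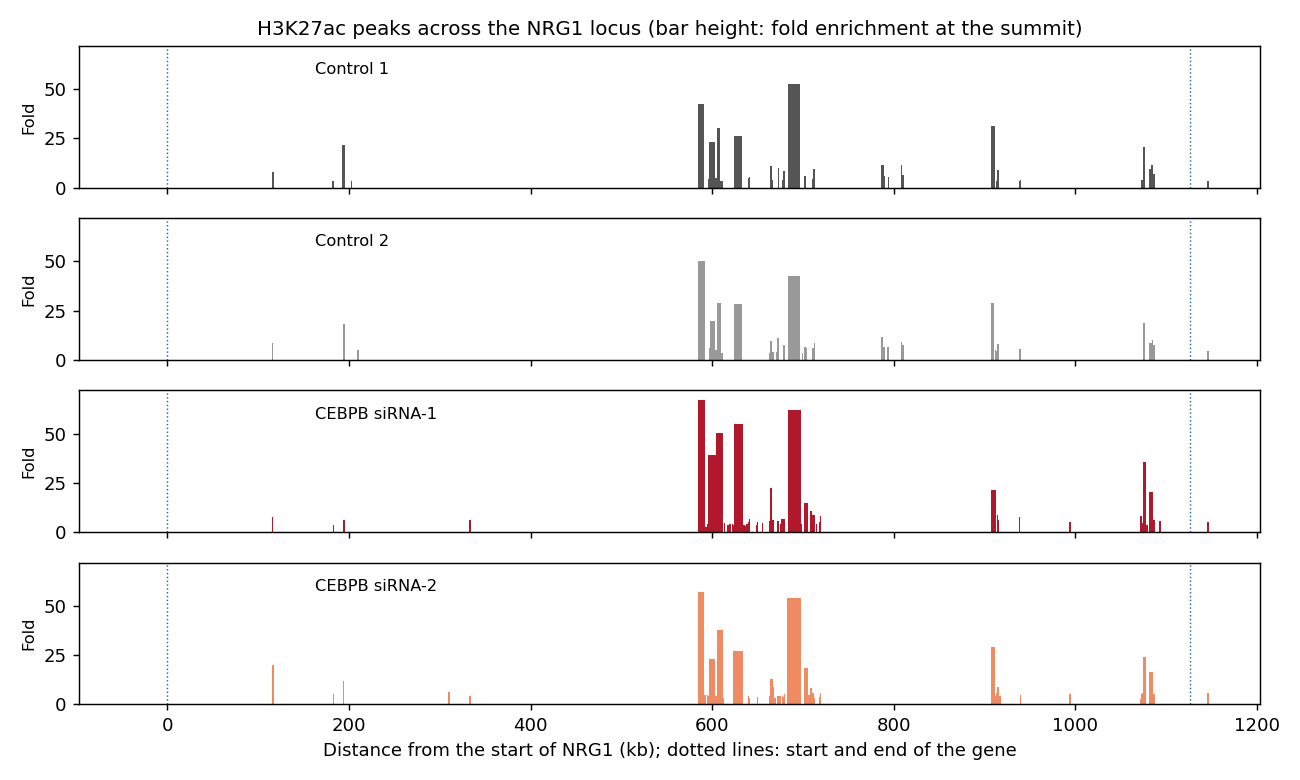
H3K27ac peaks of control 1, control 2, siRNA-1 and siRNA-2 along the NRG1 locus, by distance from the start of the gene (kb), with dotted lines at both ends of the gene. Bars span each peak and their height is the fold enrichment at the summit, a value of each list on its own; the tall bars from 584 to 719 kb form the main cluster, and the peaks from 786 to 810 kb are present in the controls only.

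The main cluster, chr8:32081161-32216383, began 584 kb into NRG1 and held 37 of the 63 regions. Its limits were set from all 4 lists together. Regions called with siRNAs against CEBPB only bridged a gap inside it and formed its far end. The differences in length and coverage given next are thus in part built into its limits. Its called length was 52.0 and 53.0 kb in control 1 and control 2, and 81.2 and 69.7 kb with siRNA-1 and siRNA-2. The groups did not overlap, and the means of 75.4 ± 8.11 and 52.5 ± 0.732 kb (SD, n = 2 each) were 43.7% apart. Peaks covered 38.4% and 39.2% of the cluster in the controls, 60.0% with siRNA-1 and 51.5% with siRNA-2. In the rest of the locus the order was different: 29.9 and 28.0 kb in the controls against 28.1 and 26.6 kb with siRNA-1 and siRNA-2. There the ranges of the 2 treatments overlapped, and the knockdown mean differed by -1.62 kb. The cluster thus held 63.5% and 65.4% of the called length of the locus in the controls, and 74.3% and 72.4% in the knockdown libraries.

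**Figure D3:**
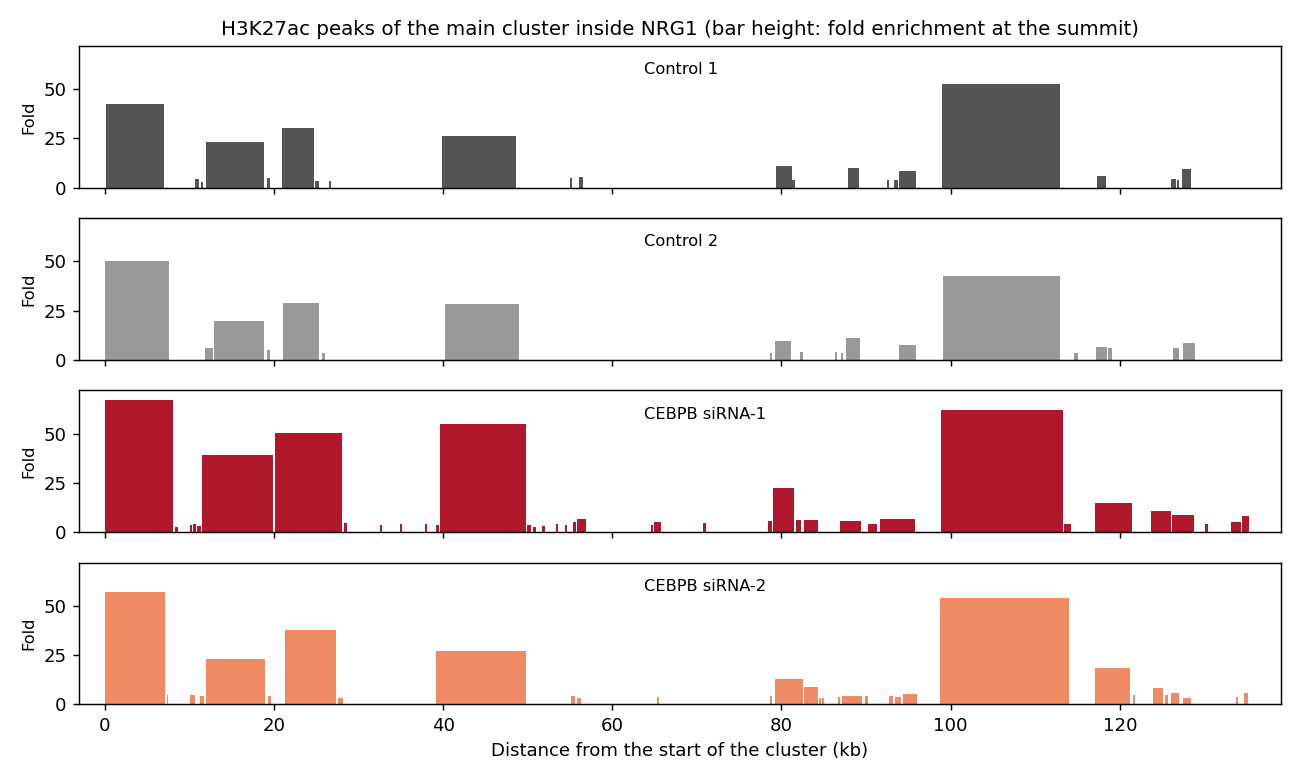
H3K27ac peaks in the 135 kb main cluster inside NRG1, by distance from the start of the cluster (kb), 1 panel per library. Bars span each peak and their height is the fold enrichment at its summit; the same tall blocks stand in all 4 panels, and in the siRNA-1 and siRNA-2 panels most of them are wider and the stretches between 80 and 135 kb are filled further.

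Bases were also counted one by one, which does not depend on how peaks are joined. Over the NRG1 locus 131 kb were called in at least 1 library and 62.6 kb in all 4. Bases called in both knockdown libraries but in no control came to 17.3 kb, or 13.2%, against 6.94% of called bases over chromosomes 1 to 22 and X. The reverse, called in both controls only, came to 6.67 kb, or 5.11%, against 7.34% over the same chromosomes. In the main cluster 13.8 kb were called in both knockdown libraries only and 0 kb in both controls only. Calls of the knockdown libraries helped to set the limits of the cluster, so that contrast in part follows from them. A further 16.9 kb of the locus (13.0%) were called with siRNA-1 only and 5.25 kb (4.02%) with siRNA-2 only, against 11.2% and 4.44% over the same chromosomes, so both shares were near the background.

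Most of the added length came as longer stretches at places already called in the controls. Of the mean difference of 21.3 kb, regions called in all 4 libraries gave 18.1 kb, of which 15.7 kb lay in the main cluster. Regions called with both siRNAs only gave 5.59 kb, regions called in both controls only gave -6.59 kb, and the remaining patterns gave 4.23 kb. In the NRG1 locus 19 regions were called in all 4 libraries (30.2%), a smaller share than the 39.8% of all merged regions. Of these 19, 13 (68.4%) had more called length in both knockdown libraries than in both controls and 1 (5.26%) had less. Over all 24133 regions called in all 4 libraries these shares were 26.9% and 25.6%. The median ratio of mean knockdown to mean control length was 1.28 in the locus and 1.01 over all such regions. Within libraries of the same label number it was 1.20 for number 1 and 1.22 for number 2, both against 1.01. In the main cluster 8 of 10 such regions were longer in both knockdown libraries, and elsewhere in the locus 5 of 9 were.

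**Figure D4:**
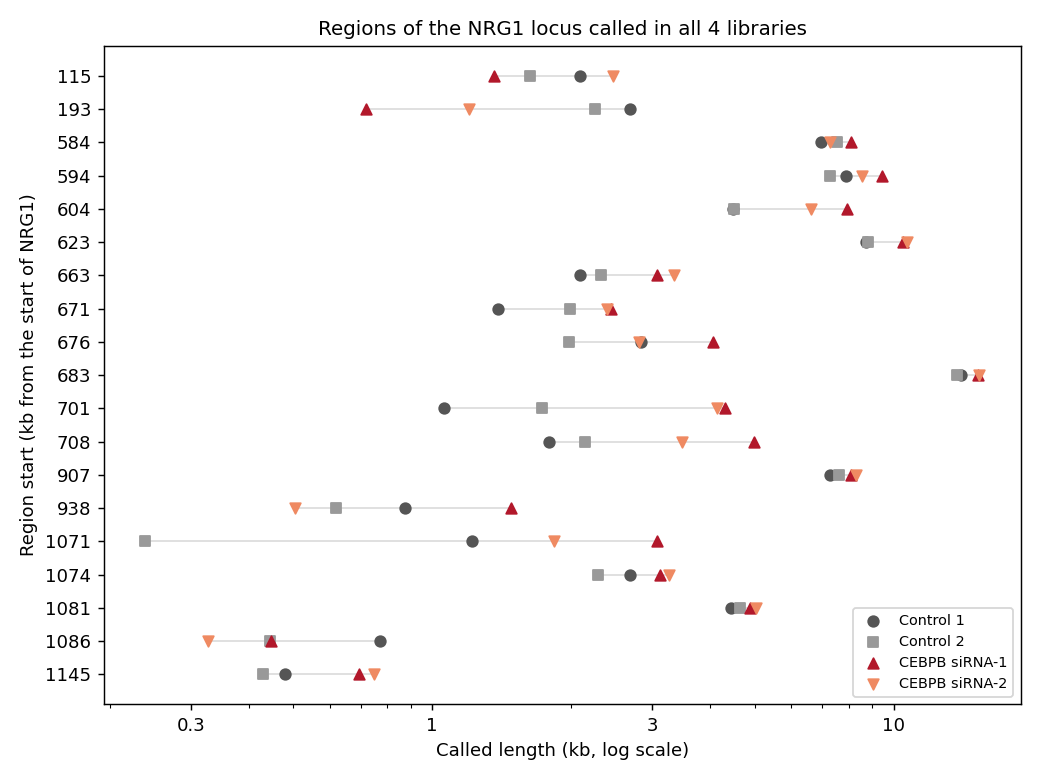
Called length (kb, log scale) of the 19 regions of the NRG1 locus called in all 4 libraries, ordered by distance of their start from the start of the gene (kb), with 1 symbol per library. In 13 rows both triangles (siRNA-1 and siRNA-2) lie to the right of both grey symbols (controls), and in the row at 193 kb both lie to the left.

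The 5 regions with the most called length were shared by all 4 libraries. Their fold enrichments are the authors' values, which depend on the depth of each list and are set side by side without comparing lists. The longest, chr8:32179895-32195338, had 14.0 and 13.7 kb called in control 1 and control 2, against 15.2 and 15.3 kb with siRNA-1 and siRNA-2. It carried fold enrichments of 52.6, 42.3, 61.8 and 53.9 in control 1, control 2, siRNA-1 and siRNA-2. By fold enrichment this block was first in the locus in control 1 and next to first in the other libraries, and its length differed by only 1.10 times. The next, chr8:32120268-32130982, had 8.72 and 8.82 kb in the controls and 10.5 and 10.7 kb with siRNA-1 and siRNA-2. Its fold enrichment was 55.1 and 26.8 with siRNA-1 and siRNA-2, where the controls had 26.5 and 28.3. The siRNAs thus gave like lengths here, both above those of the controls.

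Also among these 5, chr8:32091216-32101107 had 7.87 and 7.29 kb called in the controls, 9.43 and 8.56 kb with siRNA-1 and siRNA-2. The region at the start of the cluster, chr8:32081161-32089228, had 6.95 and 7.53 kb in the controls and 8.07 and 7.29 kb with siRNA-1 and siRNA-2. Its lengths overlapped between the treatments, although it had the highest fold enrichment of the locus in control 2 (50.4), siRNA-1 (67.3) and siRNA-2 (56.9). Outside the cluster, chr8:32403562-32412959, 907 kb into NRG1, had 7.27 and 7.60 kb in the controls and 8.08 and 8.28 kb with siRNA-1 and siRNA-2. Its fold enrichment was 31.4 and 29.1 in the controls, beside 21.3 and 28.9 with siRNA-1 and siRNA-2. This block, the longest outside the main cluster, was thus slightly longer with both siRNAs.

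The shorter regions of the main cluster showed larger ratios; those named next were singled out after their values were seen. In chr8:32198251-32202579 the controls had 1.06 and 1.73 kb called, against 4.31 and 4.15 kb with siRNA-1 and siRNA-2, a ratio of 3.02. Its fold enrichment was 6.08 and 6.56 in control 1 and control 2, then 14.5 and 18.3 with siRNA-1 and siRNA-2. The called stretch just after the longest block was thus longer with either siRNA than in either control. In chr8:32204894-32209995 called length was 1.79 and 2.14 kb in the controls and 4.97 and 3.47 kb with siRNA-1 and siRNA-2. In chr8:32101257-32109296 it was 4.49 and 4.52 kb in the controls and 7.91 and 6.62 kb with siRNA-1 and siRNA-2, and the controls' 5 peaks there stand beside 3 of the knockdown libraries. The region chr8:32168141-32170739 had 1.39 and 1.99 kb in the controls and 2.44 and 2.39 kb with siRNA-1 and siRNA-2. Its fold enrichment was 9.71 and 11.1 in the controls, beside 5.68 and 4.05 with siRNA-1 and siRNA-2.

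In the NRG1 locus 7 regions were gained, that is called in both knockdown libraries but in no control (11.1% of 63). Over all merged regions 6.76% were, and at least 7 gained regions were found in 4.47% of the windows of 1.3 Mb. The windows were not matched to the locus for their number of regions. Of the 7 gained regions, 5 lay in the main cluster, which held 37 of all 63 regions. Strength was judged by the −log10 q, the peak caller's confidence in a peak, which is higher for surer peaks. The strongest, chr8:32163787-32165510, had fold enrichments of 5.93 and 9.0 with siRNA-1 and siRNA-2, over 1724 and 1572 bp. It followed a shared region at 49 bp and was the one gained region whose −log10 q reached 10 with each siRNA. At the far edge of the cluster, chr8:32215634-32216383 was enriched 8.23-fold and 5.63-fold with siRNA-1 and siRNA-2. Next to it, chr8:32214361-32215471 was enriched 5.29-fold and 3.47-fold. These neighbours extended the called part of the cluster beyond the last region of either control. The remaining pair of the cluster, chr8:32171061-32172515 and chr8:32146143-32146888, had fold enrichments of 4.25 and 4.06, and of 5.12 and 3.65, with siRNA-1 and siRNA-2.

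Outside the cluster, both gained regions stood next to a region called in a single knockdown library. The first, chr8:31829468-31830732, lay 332 kb into NRG1 and was enriched 6.13-fold and 4.26-fold with siRNA-1 and siRNA-2. The other, chr8:32490245-32490958, lay 993 kb into the gene and was enriched 4.91-fold and 5.40-fold. All 7 were weak beside the shared blocks, with fold enrichments of at most 9.0. Together they covered 7.29 and 3.89 kb with siRNA-1 and siRNA-2. The count of 7 depends on the libraries used: it was 12 without control 1, 8 without control 2, 19 without siRNA-1 and 28 without siRNA-2. A region then has to be present or absent in 1 library fewer.

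A part of NRG1 went the other way. In the locus 4 regions were lost, that is called in both controls but with no siRNA against CEBPB (6.35%), against 7.01% of all merged regions. At least 4 lost regions were found in 19.8% of the windows of 1.3 Mb, and at least 7 gained together with at least 4 lost in 0.754%. These cut-offs are the locus' own counts, and the windows were not matched for their number of regions. No conclusion is drawn from the joint share. All 4 lost regions lay in 1 group of 24.4 kb, 786 to 810 kb from the start of the gene and after the main cluster. The largest, chr8:32282946-32286667, had fold enrichments of 11.7 in each control, over 3298 and 3284 bp. The second, chr8:32304703-32306163, was enriched 11.3-fold and 9.12-fold in control 1 and control 2. The others, chr8:32306380-32307302 and chr8:32290010-32291539, were enriched 6.60-fold and 7.38-fold, and 5.32-fold and 6.35-fold. In 3 of the 4 the −log10 q reached 10 in each control, and with either siRNA no peak was called anywhere in the 24.4 kb. Control 1 had 6.08 kb and control 2 had 7.11 kb called there, and the knockdown libraries had 0. The count of lost regions was 9 without control 1 and 7 without control 2. The order of the counts also depended on the peaks used: with a −log10 q of at least 10 in every list, 2 regions were gained and 3 lost. Shares of all merged regions were not counted at a −log10 q of 10, so counts at that threshold have no background beside them. A reciprocal overlap of 50% was applied to single peaks, not to merged regions. By it 5 peaks of siRNA-1 were matched with siRNA-2 and in no control. The reverse held for 6 peaks of control 1, matched in control 2 and with no siRNA against CEBPB. A peak that only widened can fail this match, so shared regions can enter either count.

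Less length was also called after knockdown at a place in the first part of the gene. The region chr8:31689759-31692452, 193 kb into NRG1, was called in all 4 libraries and was singled out after its values were seen. It had 2.69 and 2.25 kb called in the controls, against 0.720 and 1.20 kb with siRNA-1 and siRNA-2. Its fold enrichment was 21.6 and 18.2 in the controls, beside 6.15 and 11.9 with siRNA-1 and siRNA-2. It was the only shared region of the locus that was shorter in both knockdown libraries than in both controls. Closer to the gene start, chr8:31611633-31614088, likewise singled out afterwards, did not separate the treatments: it had 2.09 and 1.63 kb in the controls, 1.36 and 2.46 kb with siRNA-1 and siRNA-2. Its fold enrichment was 7.83 and 8.55 in the controls, beside 7.68 and 19.7 with siRNA-1 and siRNA-2. In called length the siRNAs thus differed from each other there by more than the controls did.

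Towards the end of NRG1, a group of 7 regions from 1071 to 1093 kb also had more called length in both knockdown libraries than in both controls; the regions named in it were singled out after their values were seen. Its called length was 9.12 and 7.62 kb in the controls, against 13.0 and 10.5 kb with siRNA-1 and siRNA-2. Of its 4 shared regions 3 were longer in both knockdown libraries. The strongest, chr8:32571384-32574701, had 2.68 and 2.29 kb in the controls and 3.12 and 3.26 kb with siRNA-1 and siRNA-2, with fold enrichments of 20.9, 18.5, 35.3 and 24.2 in control 1, control 2, siRNA-1 and siRNA-2. Just before it, chr8:32567856-32571240 had 1.22 and 0.239 kb in the controls and 3.07 and 1.84 kb with siRNA-1 and siRNA-2, the highest ratio of the locus at 3.37. That ratio rests on short calls, which also differed between the controls. After the end of the gene a single region, chr8:32642306-32643135, named because it is the only one there, had fold enrichments of 3.36 and 4.61 in the controls, beside 5.07 and 5.81 with siRNA-1 and siRNA-2.

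**Figure D5:**
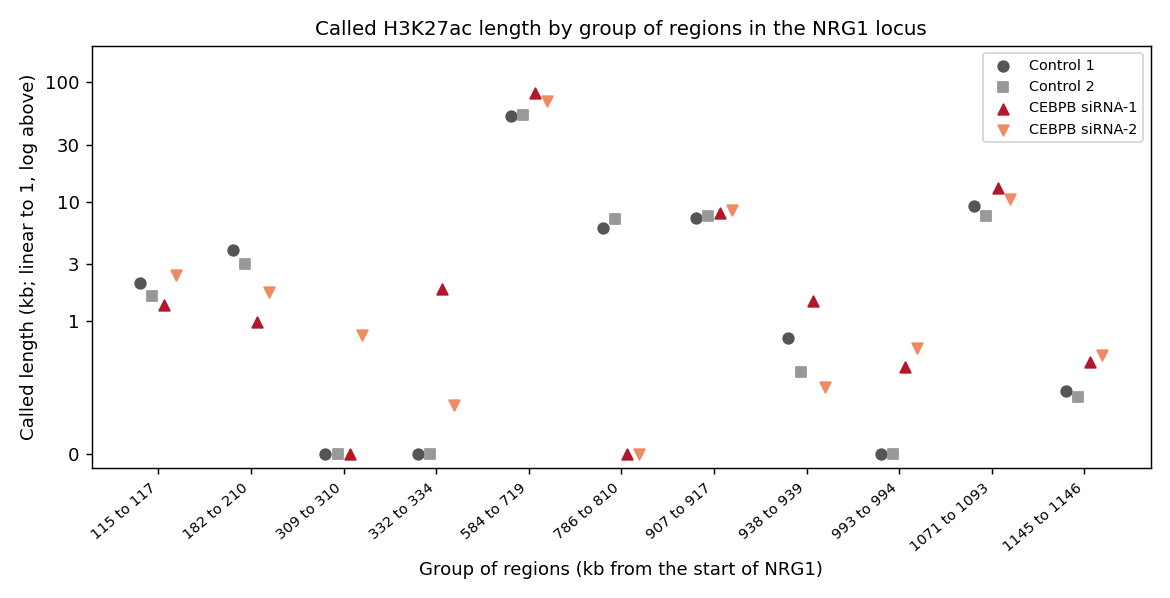
Called length (kb, linear up to 1 and log above) in the 11 groups of regions of the NRG1 locus, by distance from the start of the gene (kb), with 1 symbol per library. Both knockdown libraries lie above both controls in the main cluster (584 to 719 kb), while both lie at 0 in the group from 786 to 810 kb, where the controls have 6.08 and 7.11 kb.

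The number of peaks also separated the treatments, but not once only the surer peaks were counted. Peaks numbered 55.0 ± 4.24 in the knockdown libraries and 43.0 ± 2.83 in the controls (SD, n = 2 each). Among peaks with a −log10 q of 10 or more, however, the controls had 22 and 24, siRNA-1 had 24 and siRNA-2 had 17. The net addition in peaks thus lay below that threshold. A count of peaks also falls where neighbouring peaks join, and called length at the same threshold was still 13.2 kb higher after knockdown. The −log10 q further depends on the depth of each list, which is unknown. Of the 63 regions 29 were called in a single library: 17 with siRNA-1, 7 with siRNA-2, 1 in control 1 and 4 in control 2. These 29 were 46.0% of the regions of the locus, and 33.6% of all merged regions were called in a single library. The regions of siRNA-1 alone, 17 of 63, compare with 13.1% of all merged regions, and the 7 of siRNA-2 alone (11.1%) with 7.98%. Those of siRNA-1 were 236 to 675 bp long with fold enrichments of at most 5.37. Of these 17, 13 lay in the main cluster, which held 37 of all 63 regions. The siRNA-1 list also had the most called length of the 4 on chromosomes 1 to 22 and X, 70.44 Mb, and its part in these single-library calls was not tested.

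The extent of the main cluster can be placed within each list. Peaks of each list were joined where they lay within 20 kb of each other, and the resulting clusters were ranked by called length. The highest-ranking part of the NRG1 cluster was number 249 of 18290 in control 1 and number 220 of 17762 in control 2. Those parts held 28.8 and 28.2 kb of called length, of 52.0 and 53.0 kb in the whole cluster. The NRG1 cluster was number 14 of 18025 with siRNA-1 and number 17 of 18660 with siRNA-2. In each knockdown list all 135.2 kb were joined into 1 cluster, of 38 and 32 peaks, while in each control the calls fell into 2 clusters. These ranks describe each list by itself, and a rank moves when a single gap is bridged. With siRNA-2 the gap was bridged by 1 peak of 279 bp, enriched 3.65-fold, in chr8:32146143-32146888. The ranks thus set a part of the cluster in the controls beside the whole of it in the knockdown lists. By fold enrichment, the highest peak of the locus stood within the top 2.03% of its list in control 1 and 1.64% in control 2, and 0.760% with siRNA-1 and 0.684% with siRNA-2.

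Each peak also has a summit, its point of highest signal. The summits of the 4 libraries spanned a median of 588 bp in the 19 shared regions of the locus and 199 bp over all shared regions. They lay within 200 bp of each other in 6 of the 19 (31.6%), against 50.3% over all shared regions. Long regions can hold several maxima, and the locus was not compared with shared regions of like length. In chr8:32120268-32130982 the strongest summits of the siRNAs lay 5211 bp apart while those of the controls lay 621 bp apart. In chr8:32179895-32195338 the controls' summits were 7 bp apart and those of all 4 libraries 153 bp apart. In the longest block the summits thus lay close together in all 4 libraries, while the mean called length there differed by 1.41 kb between the treatments.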

How the data were processed

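H3K27ac immunoprecipitated DNA from 4 A549 libraries was sequenced as single-end reads of 101 bases, per the labels' protocols. Per the submitters' processing notes, the authors used MACS2 2.2.7.1, BWA 0.7.17 and SAMtools 1.7.0 on hg19; for options and the use of the 4 inputs, the sources used here say nothing. The deposited lists, 1 per library, give for each peak a fold enrichment (a ratio), a −log10 p, a −log10 q and a score (10 times the −log10 q). They hold no read counts, so depth is unknown, and a place without a peak may still be acetylated.

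On chromosomes 1 to 22 and X, overlapping peaks of the 4 lists were merged, from an overlap of 1 bp (Python 3.11.15, NumPy 2.4.6; counting checked on simulated lists). Gained regions were called in both knockdown libraries and neither control, lost regions the reverse, shared regions in all 4. Window shares were counted genome-wide, in windows laid from the first base of each chromosome, of which the locus is not one. The locus, lists and measures were chosen with earlier results of these data known. Named were all gained and lost regions, the 5 shared regions with the most called length, the 1 region after the gene, and others marked as singled out afterwards. The planned counts over other ERBB ligand and receptor genes were not made, since the gene table at hand is on GRCh38.p14; it was used only for names of neighbouring genes. Alternatives were a −log10 q threshold, reciprocal overlap, equal called length, stitching, the gene span and leaving out each library.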

Additional observations from a re-analysis of the deposited data

How the results depend on the processing

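Called length in the NRG1 locus stayed higher after knockdown under each alternative run for it. Stitching was run for counts of regions only, and reciprocal overlap for counts of peaks only. With the −log10 q of every list held to at least 10 the difference was 13.2 kb; there the number of peaks reversed, to a difference of -2.50, and 2 regions were gained and 3 lost. With that threshold only where called, 1 region was gained and 3 were lost. Under both of these settings lost regions outnumbered gained ones. Shares of all merged regions were not counted under them, so that order has no background beside it. The reciprocal overlap of 50% was counted on peaks of siRNA-1 and of control 1, with 5 gained and 6 lost. Those are not counts of regions, since a peak that only widened can fail the match. At equal called length the difference in peaks was 7. That setting kept peaks down to a −log10 q of 6.60, 2.42, 9.15 and 1.30 in control 1, control 2, siRNA-1 and siRNA-2. The siRNA-2 list was left whole, so peaks of unlike confidence were counted side by side. Stitching peaks across the gap commonly used for large enhancers left 2 gained, 2 lost and 4 longer shared units, since stitched units are fewer. Without each library in turn, gained regions ranged from 8 to 28, lost regions from 4 to 9, longer shared regions from 15 to 16, the length difference from 14.8 to 27.9 kb, the peak difference from 9 to 15 and the main cluster's difference from 17.2 to 28.7 kb. No paired test was made, since the results carry no test and the libraries share only a label number; with that number as a replicate block, the locus differed by 27.4 and 15.2 kb and the main cluster by 29.2 and 16.7 kb within numbers 1 and 2. The main cluster's alternatives were chosen after seeing the data. For the other changes the cause was not tested.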

Other observations

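Of the stretches of 1.3 Mb on either side of the NRG1 locus, the one after it also had more called length in both knockdown libraries than in both controls, and the one before it did not. From 30.1 to 31.4 Mb, towards WRN, the nearest protein-coding gene before NRG1, called length was 41.6 and 36.9 kb in the controls, 43.4 and 33.5 kb with siRNA-1 and siRNA-2, so the treatments overlapped. Of 40 regions there 1 was gained and 3 were lost. From 32.7 to 34 Mb, towards POFUT3, the next protein-coding gene, called length was 24.7 and 23.6 kb in the controls, 27.4 and 39.9 kb with siRNA-1 and siRNA-2. Of 38 regions there 5 were gained and 1 was lost. In that stretch the siRNA-2 library stood apart, with 35 peaks against 21 to 24 in the others, the opposite order of the siRNAs to that in NRG1.

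The main cluster and the group of lost regions lay 67 kb apart in the same gene, with no peak called in any library between them. The cluster held 5 of the 7 gained regions and 37 of all 63 regions.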
